A study of Mus musculus with 75 samples.

Results

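Broad H3K27ac regions were the 9259 regions of at least 10000 bp on chromosomes 1 to 19 among 124235 autosomal regions with H3K27ac signal (7.45%), out of 126368 regions in all. They were chosen by length alone. A further 37 regions of that length on the X chromosome were not members. The study profiled hypothalamic nuclei of LepRcre/+; SUN1-sfGFP/+ mice, in which Cre at the leptin receptor gene switches on a GFP tag of the nuclear envelope. Nuclei were sorted as GFP-positive (LepRb-expressing by the label) or GFP-negative, and each library used 300000 to 540000 nuclei from pooled hypothalami. The labels do not say whether replicates came from separate pools, and the p-values below therefore reflect library-to-library spread alone, which may be technical. Every group carried both alleles, so no group lacked the driver or the tag. The Cre mark covers any cell that used the driver at any earlier age.

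There were 4 treatments over 36 h. Fed mice ate freely. Fast mice were fasted and received saline at 12, 24 and 34 h. Lep2 mice were fasted and received leptin once, at 34 h and 5 mg/kg, and carry a label of 2 hours. Lep24 mice were fasted and received that dose at 12, 24 and 34 h, and carry a label of 24 hours. Sample titles code the treatments as FedSSS (Fed), FasSSS (Fast), FasSSL (Lep2) and FasLLL (Lep24). By this code Fed and Lep2 mice may also have received saline, at times not recorded here. With both sorts this gave 8 groups of 2 libraries, 16 H3K27ac libraries in all. The files are in mm9 and no annotation of that build was used, so no region is given a gene name and the sorts were not checked against marker genes. Regions are given by position in mm9, counted from 1.

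H3K27ac is acetylation of lysine 27 on histone H3. The acetyltransferases p300 and CBP place it on nucleosomes beside active promoters and enhancers, and deacetylases remove it. Most marked sites are short. Long marked stretches are known at clusters of enhancers and over genes that define a cell's identity, and in the brain they often differ between cell types. Adipose tissue releases leptin in proportion to its stores and releases less of it when food is withheld. Hypothalamic neurons with the long receptor form, LepRb, read that level and lower food intake.

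Chosen by length, broad regions took up a large part of the marked length, as the rule makes likely. They covered 178.69 of 468.19 Mb of autosomal regions (38.2%). Their length ran from 10000 to 293730 bp with a median of 14540 bp, 366 were at least 50 kb long and 52 at least 100 kb. The normalized signal, averaged over 16 libraries, had a median of 301 per broad region and ran from 98.9 to 16805. Per kb of length the median was 18.9, against 13.6 in the 114976 shorter autosomal regions and 15.5 in those of 5000 to 10000 bp. Longer members also tended to be denser: across the 9259 regions, Spearman's rho between length and signal per kb was 0.235, a description over regions that share the same libraries. All 9259 passed the filter on low signal.

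**Figure D1:**
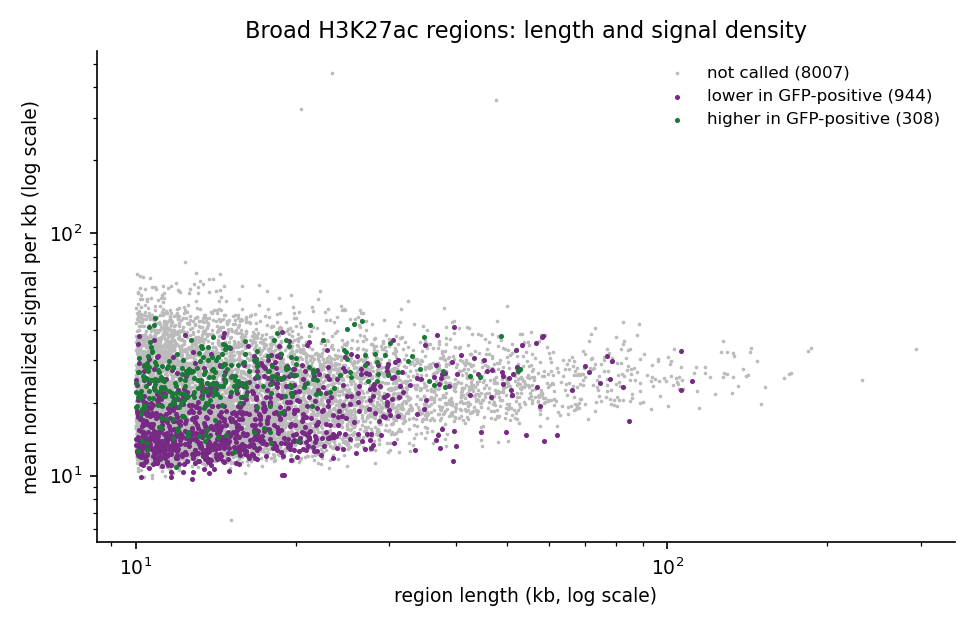
Length (kb, log scale) against mean normalized signal per kb (log scale) for the 9259 broad regions, 1 point per region, coloured by the comparison of GFP-positive with GFP-negative nuclei. The 944 regions called lower in GFP-positive nuclei lie mostly at low density (median 15.8 per kb), the 308 called higher sit further up (median 24.8 per kb), and 3 regions at 324 to 459 per kb stand apart from all others.

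The longest member lay on chromosome 18 (25626101 to 25919830) and was 293730 bp long. Its signal in GFP-positive libraries was 8068 at the lowest, 9224 at the median and 13155 at the highest. In GFP-negative libraries the same values were 6626, 8018 and 12435. The ranges of the sorts overlapped. Next in length were a region of 232617 bp on chromosome 15 (27667533 to 27900149), one of 186243 bp on chromosome 8 (119779124 to 119965366), one of 184277 bp on chromosome 5 (125482615 to 125666891) and one of 170769 bp on chromosome 2 (32980807 to 33151575). The 5 carried 24.9 to 33.7 signal units per kb. None of the 5 was called between sorts in the fit on 16 libraries, with adjusted p from 0.380 to 0.937 (limma). Within the sets of 6 and 10 libraries described below, 3 of the 5 were called. The longest was higher in GFP-positive nuclei in the other 10 (log2 0.23, adjusted p = 5.94e-06, limma) and not called in the 6 (log2 0.08, adjusted p = 0.114, limma). The one on chromosome 5 was lower in the 10 (log2 -0.30, adjusted p = 1.55e-07, limma) and in the 6 (log2 -0.16, adjusted p = 0.00329, limma). The one on chromosome 8 was higher in the 6 (log2 0.12, adjusted p = 0.0407, limma) and not called in the 10 (log2 0.07, adjusted p = 0.165, limma). Lowest per kb, apart from a region of chromosome 4 described last, were members on chromosome 11 (21255756 to 21268522, 9.66 per kb) and chromosome 19 (26921662 to 26932380, 9.75 per kb). The one on chromosome 11 had 53.1 to 105 over GFP-positive and 130 to 194 over GFP-negative libraries, which do not overlap (log2 -1.10, adjusted p = 0.00109, limma). At the length limit, the 3 members of exactly 10000 bp carried 13.4 to 37.8 signal units per kb, and the 3 longest autosomal regions below the limit carried 11.7 to 18.6. Within 1 kb above the limit there were 1484 members, and within 1 kb below it 1792 autosomal regions that are not members.

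Broad regions were spread unevenly over chromosomes. They made up 9.51% of the regions of chromosome 11, with 814 members, and 5.62% of those of chromosome 13, with 313. Chromosomes 7, 4 and 5 came next with 8.58, 8.57 and 8.52%, and chromosome 18 was near the lower end with 5.87%.

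Most broad regions were pieces of longer marked stretches. A total of 8049 (86.9%) began or ended exactly where another region ended or began, 5495 of them on both sides, against 73.5% of shorter autosomal regions that touched a neighbour. The other 1210 members stood alone. Joining pieces that touch gave 7340 stretches with at least 1 member, with a median length of 22749 bp and a median of 3 pieces. The longest such stretch lay on chromosome 12 (30271351 to 30640145), spanned 368795 bp and held 6 members among its 16 pieces. A further 4996 autosomal stretches of at least 10000 bp held no member, since none of their pieces reached the limit. The rule therefore reads the length of the deposited pieces, not of the marked stretch.

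The libraries were not alike. A set of 6, the first replicate of every group except the Fast groups, had more signal on the mitochondrial chromosome (0.0750 to 0.238%) than the other 10 had (0.0102 to 0.0384%). In the 6 libraries the median signal per kb of broad regions was 1.49 to 1.54 times that of shorter regions, and in the other 10 it was 1.21 to 1.38 times. The ranges of the 6 and the 10 did not overlap. Fast has no library in the set of 6, so the set is partly confounded with treatment. It is balanced over sorts. The shares of signal and the sort calls by length are given with all 16, with the 6 and with the other 10, and the treatment changes with all 16 and with the other 10. Other counts are from the fit on 16.

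A small number of very dense regions bear on every share of signal. Of all autosomal regions, 34 had more than 100 signal units per kb, and 3 of them were members. These lay near the starts of chromosome 9 (3015032 to 3038464, 459 per kb) and chromosome 11 (3026918 to 3074463, 353 per kb, and 3075910 to 3096357, 324 per kb). The next densest member, on chromosome 9 (62186029 to 62198419), had 76.4 per kb. In the 47546 bp member of chromosome 11 the signal ran from 1697 to 42991 over GFP-positive libraries with a median of 3151, and from 1897 to 60685 over GFP-negative libraries with a median of 4549. The densest region of all was a shorter one on chromosome 2 (98502227 to 98507677), where the 6 libraries had 147563 to 1315250 signal units and the other 10 had 10504 to 47570. The 34 regions together took 2.12 to 14.0% of autosomal signal in each of the 6 libraries, against 0.253 to 0.763% in each of the 10. Within the 6 they took 11.6% ± 2.34 in GFP-negative and 4.13% ± 2.44 in GFP-positive libraries (mean ± SD, n = 3 each).

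The share of autosomal signal in broad regions was close to 42%, beside 38.2% of the covered autosomal length, and no difference between sorts was detected over all libraries. In the 6 libraries it was 44.7, 44.3 and 45.4% in GFP-positive nuclei (Fed, Lep2, Lep24) and 41.3, 43.5 and 44.0% in GFP-negative nuclei. In the other 10 it was 40.6 (Fed), 39.2 and 40.0 (Fast), 38.9 (Lep2) and 40.3% (Lep24) in GFP-positive nuclei. In GFP-negative nuclei of the 10 it was 41.4 (Fed), 40.7 and 40.0 (Fast), 41.9 (Lep2) and 42.2% (Lep24). The means were 41.7% ± 2.66 and 41.9% ± 1.37 (SD, n = 8 per sort), and the two-sided exact permutation test over the 16 libraries gave p = 0.860 for a difference of -0.19 points. Leaving out 1 library at a time gave differences from -0.73 to 0.20.

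Within the sets the direction differed. In the 6, GFP-positive exceeded GFP-negative in 3 of 3 pairs of the same treatment and number, by 1.86 percentage points on average (two-sided exact permutation p = 0.1, the smallest possible with 3 against 3). In the other 10, GFP-positive was lower in 5 of 5 pairs, with a mean difference of -1.42 points (two-sided exact permutation p = 0.0317, the smallest possible being 0.00794). The opposition did not hold without the dense regions. Without the 34, the shares in the 6 were 46.2, 46.6 and 46.1% for GFP-positive and 46.9, 47.7 and 47.3% for GFP-negative nuclei, so GFP-positive was lower in 3 of 3 pairs, with a difference of -1.03 points (exact permutation p = 0.1). In the other 10 GFP-positive was then lower in 4 of 5 pairs, at -1.43 points (exact permutation p = 0.0556), and over all 16 it was lower in 7 of 8 pairs, at -1.28 points (exact permutation p = 0.463). Leaving out only the 3 dense members kept the opposite directions, with 2.25 points in the 6 and -1.42 in the other 10. By length class and without the 34, GFP-positive was lower in 8 of 8 pairs for members of 15000 to 20000 bp (-0.21 points) and of 20000 to 30000 bp (-0.27 points), in 7 of 8 for those of 30000 bp or more (-0.76 points), and in 4 of 8 for those of 10000 to 15000 bp (-0.04 points). Exact permutation p over the 16 libraries ran from 0.344 to 0.695 in these 4 classes. That test moved the sort labels freely over the 16 libraries and ignored the pairs. The gap between the 6 and the other 10 is part of its spread, so a large p does not show equal shares. This holds for each permutation p over all 16. In the other 10 the exact permutation p was 0.0159 at 15000 to 20000 bp (-0.23 points), 0.0317 at 20000 to 30000 bp (-0.30 points), 0.0556 at 30000 bp or more (-0.80 points) and 0.111 at 10000 to 15000 bp (-0.09 points), without adjustment over the classes. In the 6 the 3 longer classes were lower in 3 of 3 pairs with the smallest possible exact permutation p, 0.1, and the class of 10000 to 15000 bp was higher in 2 of 3 (p = 0.2).

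**Figure D2:**
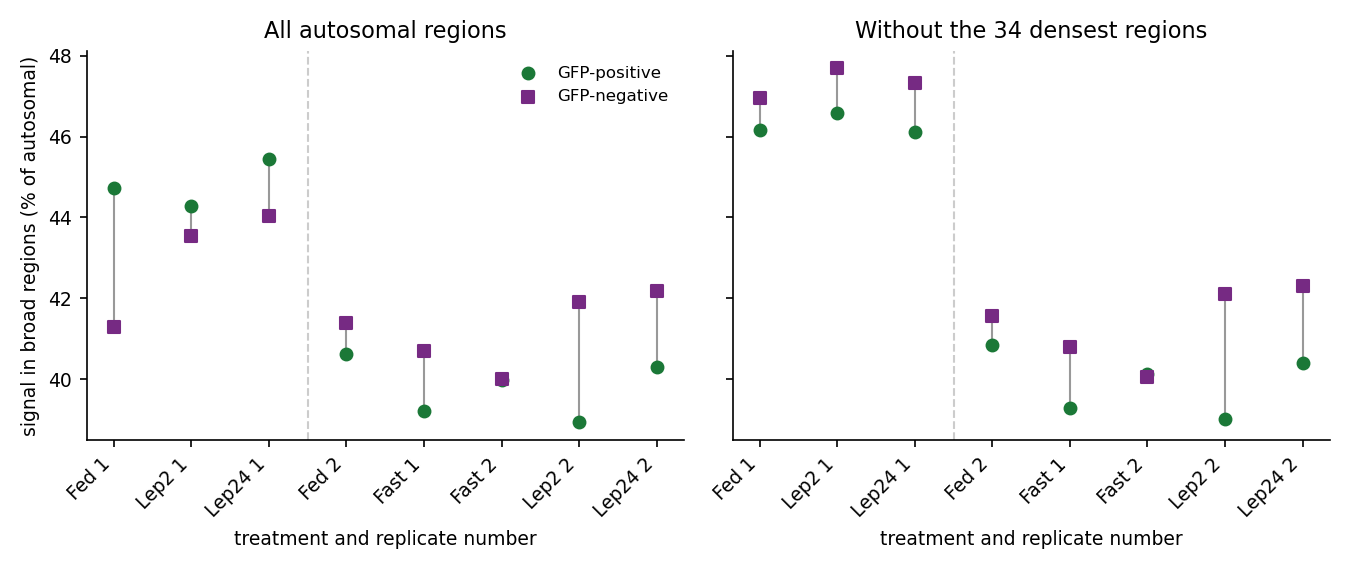
Share of autosomal H3K27ac signal in broad regions (%) by treatment and replicate number, with GFP-positive libraries as circles and GFP-negative as squares, the set of 6 left of the dashed line, and a vertical axis that does not start at 0. On the left, with all regions, circles lie above squares in the set of 6, and on the right, without the 34 densest regions, they lie below them in all pairs but Fast 2, with the set of 6 at 46.1 to 47.7% and the other 10 at 39.0 to 42.3%.

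At single regions the sorts differed often, and more often downward. GFP-positive nuclei had higher signal at 308 broad regions (3.33%) and lower signal at 944 (10.2%). Over all 113725 regions tested the percentages were 3.26 and 5.97. In this fit the share called higher was near the background and the share called lower above it. Autosomal regions of 5000 to 10000 bp had 4.46% higher and 9.46% lower, so more lower than higher calls were not particular to broad regions. With the set of 6 as a term in the fit the counts were 1787 higher (19.3%) and 2509 lower (27.1%), where 13.2 and 13.4% of all regions were called, so both shares then lay above the background. Broad regions also had a smaller residual spread, with a median SD of 0.261 log2 units against 0.414 in shorter autosomal regions, so equal differences are called more readily in them. Each region was tested with limma on log2(signal + 1) for the sort difference averaged over the 4 treatments. P-values were adjusted over all regions by Benjamini-Hochberg, and 0.05 was the threshold. In these sorted pools, fewer nuclei of a type with the mark and less acetylation per nucleus cannot be told apart.

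Among the called broad regions the downward differences were also larger. The called higher regions had a median log2 difference of 0.45, from 0.27 to 1.07, and 1 of them reached 2-fold. The called lower ones had a median of -0.82, from -2.25 to -0.28, and 314 of them (33.3%) reached 2-fold. These sizes are not set beside those of all called regions, so whether they are particular to broad regions is not shown. Over all broad regions the median was -0.02, against 0.03 over all regions tested. Of the called regions, 271 of 308 and 859 of 944 had the same sign in all 8 pairs of libraries. The same libraries chose these regions, so much of this agreement was fixed in advance. All 8 GFP-positive libraries lay above all 8 GFP-negative ones at 171 broad regions (1.85%, against 0.674% of all regions tested), and below them at 431 (4.65%, against 1.65%).

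These counts moved with single libraries. The number higher lay between 123 and 201 without any 1 of 9 libraries (Fed GFP-positive 1 and 2, the 4 Fast libraries, Lep2 GFP-positive 2, Lep24 GFP-positive 2 and Lep24 GFP-negative 2). The number lower lay between 610 and 628 without Fed GFP-positive 2, Fast GFP-negative 1, Fast GFP-positive 1 or Lep24 GFP-positive 2. Each of these fits had 1 library fewer, but the counts did not always fall. Without Lep2 GFP-positive 1 they were 343 higher and 1246 lower. The cause of these shifts was not tested.

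Each set of libraries taken alone gave more lower than higher calls. In the 6 alone, 483 broad regions (5.22%) were higher and 848 (9.16%) lower, where 2.06 and 2.04% of all regions were called. In the other 10 alone, 2380 (25.7%) were higher and 3082 (33.3%) lower, where 16.4 and 16% of all regions were called. Within each set, then, both shares were above those of all regions. Autosomal regions of 5000 to 10000 bp had 4.84% higher and 3.84% lower in the 6, and 25.8 and 24.5% in the other 10. The share of higher calls was thus close to that of broad regions in both sets. The 308 and 944 regions called over all 16 were all called with the same sign in the other 10, and 171 and 593 of them also in the 6. Calls of the opposite sign numbered 0 in both sets. Both sets are parts of the 16 libraries that chose these regions, so this overlap was largely fixed in advance. The differences were smaller in the 6, where the lower regions had a median log2 of -0.46, than in the other 10, where it was -1.02. The authors' deposited table lists 1086 broad regions as higher and 1631 as lower in GFP-positive nuclei at an FDR under 0.05, 29.3% of the 9259 against 15.4% of all regions with an FDR. Of those, 1242 were also called here with the same sign and 0 with the opposite sign. The authors' comparison rests on the same series, so this overlap is no independent check. For the fasted saline libraries alone, the authors' deposited table lists 639 higher and 1293 lower, 20.9% of broad regions against 10.1% of all.

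Among broad regions, the excess of lower over higher calls grew with length when each set of libraries was taken alone. In the other 10, 26.7% of regions of 10000 to 15000 bp were higher and 29% lower, and of the 1064 regions of 30000 bp or more 18.3% were higher and 45.9% lower. In the 6 the percentages were 5.29 and 6.82 in the shorter class and 4.70 and 16.7 in the longest. Over all 16 libraries the longest class had 1.41% higher and 7.61% lower, so its share of lower calls was below the 12% of the 15000 to 20000 bp class, while the share of higher calls fell from 3.85% in the shortest to 1.41% in the longest class of broad regions. The median log2 difference over all 16 went from 0.01 at 10000 to 15000 bp to -0.08 at 30000 bp or more, and it was 0.04 at 5000 to 10000 bp. In the 6 alone it went from -0.02 to -0.07 over the same broad classes and in the other 10 from 0.001 to -0.09. No test was made of these medians.

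**Figure D3:**
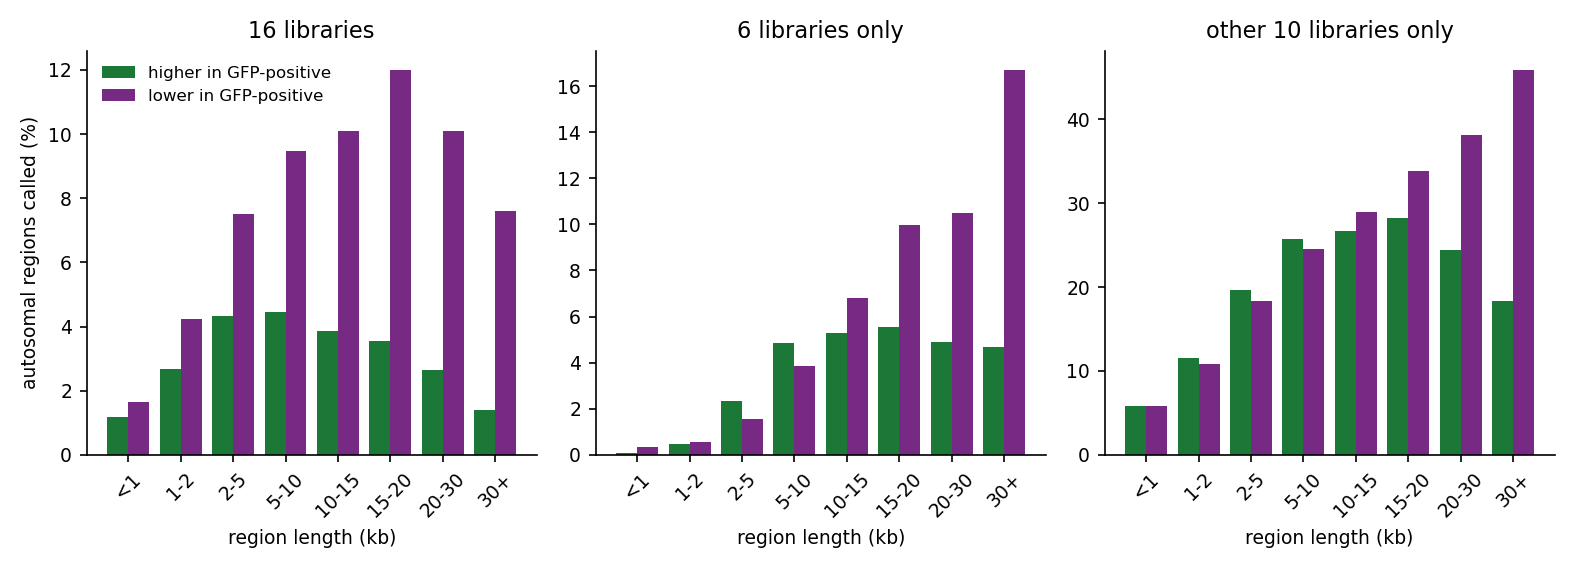
Percentage of autosomal regions called higher or lower in GFP-positive nuclei (bars) by region length (kb), in the fit on 16 libraries, on the 6 alone and on the other 10 alone, each panel with its own vertical scale from 0. In the 2 right panels the bars for lower calls rise to 16.7 and 45.9% in the class of 30 kb or more, while those for higher calls do not.

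Among the 10 higher regions with the smallest p and the same sign in all pairs, log2 differences ran from 0.60 to 0.98 with adjusted p from 0.000802 to 0.00259 (limma). In each of the 10, the sorts did not overlap. First was a 24997 bp region on chromosome 13 (117081229 to 117106225). Its signal over GFP-positive libraries was 1096 at the lowest, 1391 at the median and 1501 at the highest, and over GFP-negative libraries 611.5, 673 and 775. GFP-positive libraries were thus all well above the highest GFP-negative one, at log2 0.98 (SE 0.10, adjusted p = 0.000802, limma). The lowest GFP-positive values, 1096 and 1119, were those of Lep2 and Lep24 replicate 1, which are in the set of 6.

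Second was a 16366 bp region on chromosome 6 (5349686 to 5366051). It carried 467 to 663 over GFP-positive libraries with a median of 559, and 265 to 354 over GFP-negative libraries with a median of 330, a difference of log2 0.82. The next was a 12596 bp region on chromosome 1 (137945828 to 137958423), with 361 to 483 and a median of 426 against 214 to 298 and a median of 257. The sorts were apart in both, by 1.76-fold and 1.64-fold. After it came a 16877 bp region on chromosome 5 (120116865 to 120133741), with 493 to 763 against 283 to 449. Its difference depended on the libraries, at log2 0.48 in the 6 and 1.19 in the other 10.

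The other 6 higher regions were 11171 to 20010 bp long. Chromosome 7 held one (107442262 to 107462271) with means of 737 and 485, chromosome 14 one (30476062 to 30489570) with 443 and 284, chromosome 2 one (129688808 to 129701381) with 423 and 272, and chromosome 16 one (96048898 to 96062829) with 462 and 297, in GFP-positive and GFP-negative nuclei in turn. The last 2 lay on chromosome 5 (73719484 to 73736373), with 585 and 376, and chromosome 11 (90987570 to 90998740). The one on chromosome 11 was the weakest of the 10 in signal, with a mean of 220 ± 14.4 against 131 ± 24.3 (SD, n = 8 per sort), and the only one of the 10 that touched no other region.

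The 10 lower regions with the smallest p differed by more, from -1.78 to -1.19 on the log2 scale, with adjusted p from 0.000802 to 0.000968 (limma). The sorts did not overlap in any of them. First was a 10720 bp region on chromosome 9 (69608766 to 69619485). Its signal over GFP-positive libraries was 71.4 at the lowest, 87.9 at the median and 126 at the highest, and over GFP-negative libraries 207, 289 and 364. The highest GFP-positive value, of Lep2 replicate 1, was still below the lowest GFP-negative one, and the fold was 3.17 (log2 -1.66, SE 0.13, adjusted p = 0.000802, limma).

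Second was a 16675 bp region on chromosome 1 (74334899 to 74351573), the strongest of the 10. It carried 262 to 348 over GFP-positive libraries with a median of 298, and 559 to 895 over GFP-negative libraries with a median of 760, a fold of 2.41. Within GFP-negative nuclei the 3 libraries of the set of 6 were the lowest, at 559, 594 and 587, and the other 5 lay from 718 to 895. The next was an 11109 bp region on chromosome 10 (50609414 to 50620522), with 107 to 161 against 213 to 332 and medians of 115 and 280.

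The largest log2 difference of the 10, -1.78, was at an 11089 bp region on chromosome 4 (97243866 to 97254954), with 42.7 to 141 and a median of 66.1 over GFP-positive libraries against 168 to 310 and a median of 268. It was -0.88 in the 6 and -2.33 in the other 10. The other 6 lower regions were 10013 to 15740 bp long, and their folds ran from 2.44 to 3.22. Chromosome 1 held one (42758062 to 42768744) with means of 85.0 and 264, chromosome 3 one (95910274 to 95926013) with 104 and 280, chromosome 4 one (75978835 to 75992891) with 105 and 266, and chromosome 17 one (10588037 to 10598049) with 124 and 370, in GFP-positive and GFP-negative nuclei in turn. Chromosome 18 held the last 2, from 69713714 to 69724821 with 103 and 248 and from 49768808 to 49779019 with 61.0 and 167.

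**Figure D4:**
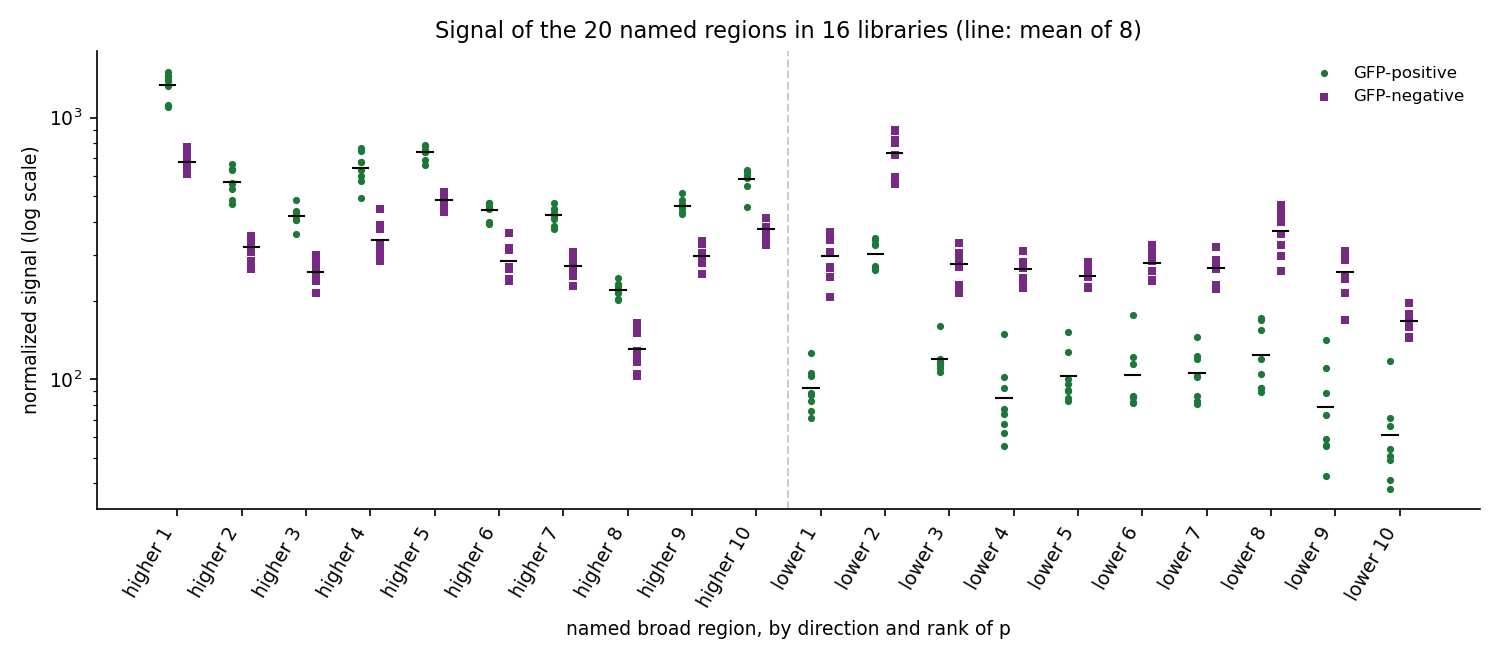
Normalized signal (log scale) of the 10 higher and 10 lower named broad regions in the 16 libraries, GFP-positive as circles and GFP-negative as squares, with a line at the mean of 8 libraries. In each of the 20 regions all circles lie on one side of all squares, and the gap is wider among the lower regions (log2 -1.78 to -1.19) than among the higher ones (0.60 to 0.98).

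Sort differences of touching broad regions were alike. Of 568 pairs of broad regions that touch, 60 were both called lower, 1 both higher, 0 in opposite directions, 89 had 1 called member and 418 had none. Across those pairs Pearson's r of the log2 differences was 0.717, over neighbours that share libraries and position. No stretch held calls in both directions. Of the 1383 stretches with at least 2 members, 100 held at least 2 lower members and 19 at least 2 higher members. These counts are not set beside those of other touching regions or of pairs drawn at random. Whether they are particular to broad regions is not shown. The stretch with the most was on chromosome 18 (69713714 to 69800376), where 6 of 6 members in 86663 bp were lower. A stretch on chromosome 11 (82606056 to 82685944) had 4 of 4 lower. Among higher calls, 3 of 4 members were called on chromosome 1 (166985360 to 167065535) and 3 of 3 on chromosome 12 (75170150 to 75224924). By chromosome, the share of broad regions called lower ran from 5.49% on chromosome 5 (39 of 710) to 15.9% on chromosome 19 (38 of 239). On chromosome 18 it was 15.4% (38 of 246). The share called higher ran from 1.22% on chromosome 18 (3 of 246) to 5.32% on chromosome 12 (23 of 432). Shares over all regions of each chromosome are not given, so whether this spread is particular to broad regions is not shown.

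Open chromatin, measured by ATAC-seq in 16 libraries of the same 8 groups, was a readout the length rule did not use. Of 42998 autosomal ATAC regions tested, 15282 (35.5%) overlapped a broad region by at least 1 bp, and 6660 broad regions (71.9%) held at least 1. Of the 1064 broad regions of 30000 bp or more, 1017 held one, and of the 4911 under 15000 bp, 3114 did. The longest member, on chromosome 18, held the most, 42, and 4 of these were called more open in GFP-positive nuclei and 0 less open.

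ATAC regions inside broad regions were called at about the background rate. GFP-positive nuclei had 754 (4.93%) with a higher and 618 (4.04%) with a lower ATAC signal, against 4.66 and 5.13% of all 43767 ATAC regions tested with limma. The first count lay between 436 and 481 without Fed GFP-negative 2, Fed GFP-positive 2, Fast GFP-negative 2, Lep2 GFP-negative 1 or 2, or Lep24 GFP-negative 1. The second lay between 347 and 370 without replicate 2 of Fed, Fast, Lep2 or Lep24 GFP-negative. Split by the H3K27ac call, the ATAC calls leaned the same way. Of the 308 broad regions with higher H3K27ac, 293 held an ATAC region, 72 (23.4%) held one called more open and 5 (1.62%) one called less open. Of the 944 with lower H3K27ac, 547 held an ATAC region, 203 (21.5%) held one called less open and 10 (1.06%) one called more open. Of the 8007 not called, 5820 held one, 613 (7.66%) a more open and 358 (4.47%) a less open one. Among the named regions, 4 of 10 higher ones held a more open ATAC region and 0 a less open one, and 3 of 10 lower ones held a less open and 1 a more open one.

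No treatment change was called at any broad region. The changes with fasting, with single leptin and with repeated leptin gave 0 of 9259 in either sort, and the tests of whether a change differed between sorts gave 0 as well. Among all 113725 regions 0% was called in each of the 9 comparisons (limma). Smallest adjusted p-values over members were 0.985 and 0.716 for fasting in GFP-positive and GFP-negative nuclei, 0.923 and 0.722 for single leptin, and 0.942 and 0.714 for repeated leptin. At an unadjusted p under 0.05, fasting in GFP-positive nuclei had 0 higher and 6 lower broad regions, and in GFP-negative nuclei 18 and 81. Single leptin had 41 higher and 1 lower in the positive sort and 90 and 15 in the negative sort, and repeated leptin 21 and 0, and 113 and 3. These are 0.0648 to 1.25% of broad regions, where the same comparisons had 1.91 to 6.05% of all regions. Without any change, a share of about 0.05 of regions would reach an unadjusted p under 0.05. The shares of broad regions lay below that. Each Fed, Lep2 and Lep24 group joins a library of the set of 6 with one outside it. That split is part of the residual spread of this fit, and its effect on these shares was not tested. The low shares therefore do not show that broad regions change less with treatment. For the differences between sorts the counts were 0 and 4 for fasting, 2 and 4 for single leptin, and 0 and 2 for repeated leptin. The authors' deposited table lists 0 broad regions in each of its 6 leptin comparisons. With 2 libraries per group the 95% interval of a change reached a median of 0.58 log2 units to either side, and 0.82 for a difference between sorts, before any adjustment for the number of regions.

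All changes below share the 2 Fast libraries of a sort. The median broad region was lower in Fast than in Fed, with a change of -0.16 log2 units in GFP-positive nuclei and -0.15 in GFP-negative nuclei. It was higher in Lep2 than in Fast, by 0.12 and 0.17, and higher in Lep24 than in Fast, by 0.14 and 0.16. The median over all regions tested stayed between -0.01 and 0.02 in these comparisons. With the other 10 libraries only, the broad medians were -0.05 and -0.04 for fasting, -0.03 and 0.06 for single leptin and 0.03 and 0.07 for repeated leptin. The set of 6 contains 1 of 2 libraries in each Fed, Lep2 and Lep24 group and none of Fast, and in those 6 the broad regions have a higher median signal (315 to 321) than in the other 10 (266 to 296).

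**Figure D5:**
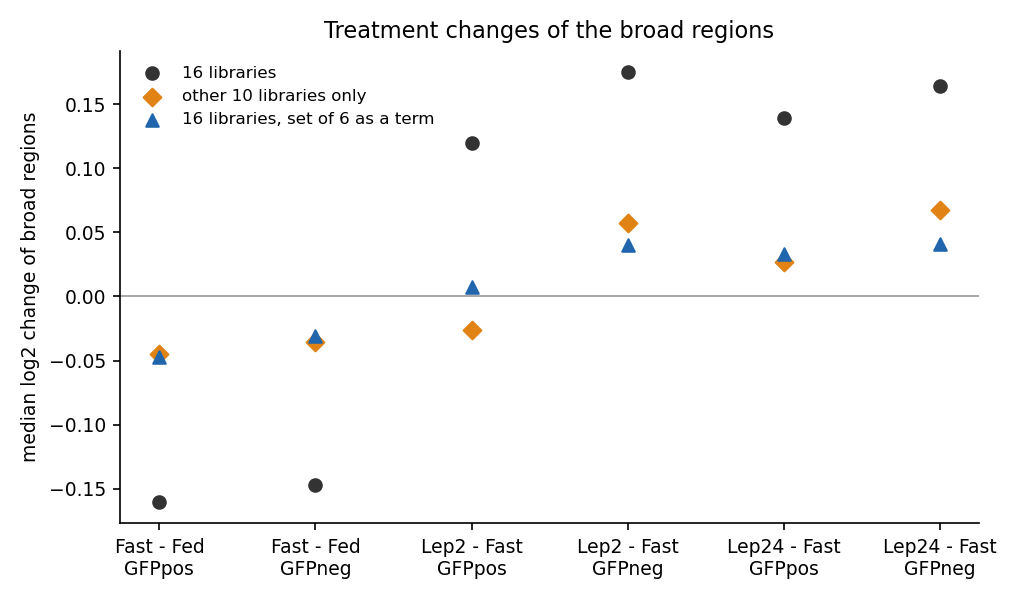
Median log2 change of the 9259 broad regions for each treatment comparison and sort, with all 16 libraries, with the other 10 only and with the set of 6 as a term in the fit. With 16 libraries the points lie at -0.16 and -0.15 for fasting and at 0.12 to 0.17 for leptin, and in the other fits all lie between -0.05 and 0.07.

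With the other 10 libraries only, 74 broad regions were called for repeated leptin in GFP-negative nuclei, 68 higher and 6 lower, where 0.751% of all regions was called. There was 1 called, higher, for fasting in GFP-negative nuclei, where 0.0871% of all regions was called, and 0 in the other 7 comparisons. For repeated leptin the share of broad regions called was near that of all regions, and for fasting it was below. Neither count was thus a result about broad regions in particular. In that fit the Fed, Lep2 and Lep24 groups have 1 library each, which is assumed to vary like the Fast libraries. With the set of 6 as a term 0 broad regions were called in every comparison.

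The broad regions with the smallest p for each change differed in how far single libraries decided these values. For repeated leptin in GFP-negative nuclei the first was an 11732 bp region on chromosome 1 (145940497 to 145952228), with 193 and 109 in Lep24 replicates 1 and 2 against 75.1 and 70.0 in Fast (log2 0.99, SE 0.31, adjusted p = 0.714, limma). It was also first for single leptin in GFP-negative nuclei, with 165 and 116 in Lep2 against the same Fast libraries (log2 0.92, adjusted p = 0.722, limma). In both, replicate 1, of the set of 6, was the higher one.

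A 10539 bp region on chromosome 2 (19061552 to 19072090) was first for single leptin in GFP-positive nuclei, with 174 and 49.0 in Lep2 against 30.2 and 40.3 in Fast (log2 1.38, adjusted p = 0.923, limma). Replicate 2 of Lep2 lay close to Fast. For fasting in GFP-negative nuclei a 16645 bp region on chromosome 7 (31734102 to 31750746) was first, with 774 and 873 in Fast against 412 and 584 in Fed (log2 0.74, adjusted p = 0.716, limma). Both Fast libraries lay above both Fed libraries there. A 12767 bp region on chromosome 11 (21255756 to 21268522) was first for fasting in GFP-positive nuclei, with 62.9 and 53.1 in Fast against 105 and 81.7 in Fed (log2 -0.67, adjusted p = 0.985, limma). A 19294 bp region on chromosome 7 (29152433 to 29171726) was first for repeated leptin in the same sort, with 503 and 442 in Lep24 against 345 and 306 in Fast (log2 0.54, adjusted p = 0.942, limma).

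The second-ranked regions lay on chromosome 12 (101304059 to 101314944) and chromosome 3 (54962106 to 54974526) for fasting, chromosome 18 (49768808 to 49779019) and chromosome 19 (26765186 to 26775241) for single leptin, and chromosome 18 (69817983 to 69830718) and chromosome 17 (69536037 to 69554630) for repeated leptin, in GFP-positive and GFP-negative nuclei in turn. Their log2 changes were -0.86 and -0.93, 0.94 and 0.92, and 0.60 and 0.86. None passed the test. The region of chromosome 18 from 49768808 was also among the 10 named lower regions of the sort comparison.

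The 20 regions named for the sorts had no called treatment change either. Over the 10 higher ones the changes in GFP-positive nuclei ran from -0.13 to 0.14 log2 units for fasting, -0.38 to -0.03 for single leptin and -0.32 to 0.05 for repeated leptin. Over the 10 lower ones they ran from -0.63 to 0.08, 0.17 to 0.94 and -0.08 to 0.86. At each of the 10 lower ones Lep2 GFP-positive replicate 1, of the set of 6, lay above replicate 2. On chromosome 4 (97243866 to 97254954) these replicates had 141 and 55.8 against 42.7 and 56.2 in Fast.

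Finally, 8 broad regions had most of their signal, 81.1 to 99.8% of the sum over 16 libraries, in the Fed replicate 1 libraries of both sorts. They were found as members whose highest library exceeded 20 times the median of the 16 plus 1. They lay on chromosome 4 (145580196 to 145591929, 145591930 to 145615018, 145631969 to 145647074 and 147009804 to 147023821) and chromosome 5 (10235425 to 10245637, 15113273 to 15138505, 26582354 to 26597509 and 93955896 to 93973983). At the first, Fed GFP-negative replicate 1 had 1792, Fed GFP-positive replicate 1 had 368, no other library had more than 2.3 and 12 were listed at 0. At the last, the same libraries had 3774 and 661, no other had more than 3.3 and 11 were listed at 0. Over the 8, GFP-negative replicate 1 carried 1309 to 6516, GFP-positive replicate 1 carried 228 to 1604, and the next library 2.3 to 142. Of the 8, 5 were listed at 0 in at least 1 library, and no other broad region was. None of the 8 was called between sorts over 16 libraries.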

How the data were processed

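H3K27ac ChIP-seq and ATAC-seq were analysed in 16 libraries each, and the other samples of the series (23 RNA, 16 ChIP input and 4 ATAC input libraries) were not analysed here. The authors deposited, per region, a normalized signal in each library with 1 decimal. The sources used here do not give how it was normalized, and the read depth behind a value is unknown. The authors' deposited table also holds log2 fold changes and FDR values of their own comparisons, made by a method not stated for these columns. A further 16 columns of per-sample values in either file were not used. Per the submitters' processing notes the build was mm9, and the tools named, without a role, were MACS2, DESeq2 1.16.1, HTSeq 0.6.0, CASAVA 1.8, Bowtie2 2.2.6, Bowtie 1.2 and STAR 2.5.2b. ChIP buffers held sodium butyrate, a deacetylase inhibitor, per the labels' protocols.

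Signal was taken as log2(signal + 1), and regions in the lowest 10% by mean over 16 libraries were left out (limit 5.96 for H3K27ac and 5.44 for ATAC), which left 113725 of 126368 and 43767 of 48634 regions. In R 4.3.3, limma 3.58.1 fitted the means of 8 groups with an intensity trend and 8 residual degrees of freedom, and p-values were adjusted over all regions tested. Shares of signal were compared with two-sided exact permutation tests over libraries. These ignored the pairs, and those over all 16 took no account of the set of 6. Tables were read with data.table (version 1.17.8), and plots were drawn with Python 3.11.15 and matplotlib 3.10.9. The fit was checked on simulated data. Regions were named by rule: per direction the 10 broad regions with the smallest p and the same sign in all pairs of libraries, and per treatment comparison the 2 with the smallest p. The members and lists were chosen with earlier results of these data known. Alternatives were other pseudocounts and filters, scalings, thresholds and length limits, a replicate block, the sets of 6 and 10 libraries, joined stretches, and leaving out each library.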

Additional observations from a re-analysis of the deposited data

Results flagged for a closer look

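Of 68 groups of 8 libraries examined at named and described broad regions, 9 had 1 library far from the others by Dixon's criterion, where chance flags about 1 in 20 groups (3.4 of 68). In 7 of the 9 that library was Lep2 GFP-positive replicate 1. At the higher region on chromosome 5 (73719484 to 73736373) it had 455.1, and the other GFP-positive libraries had 547.7 to 628.8. It was the highest GFP-positive library at 3 of the lower regions. On chromosome 10 (50609414 to 50620522) it had 160.5 against 107.1 to 119.7 in the others, on chromosome 3 (95910274 to 95926013) 175.9 against 80.9 to 122.1, and on chromosome 18 (49768808 to 49779019) 117.5 against 38.2 to 71.1. In all 4 its value lay toward the GFP-negative libraries.

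The same library was the highest GFP-positive one at the 3 very dense members, where the highest GFP-negative library lay above it (60685.1, 48441.5 and 24090.4). It had 42990.5 on chromosome 11 (3026918 to 3074463), where the other GFP-positive libraries had 1696.8 to 15069.8. It had 28848 on chromosome 9 (3015032 to 3038464), against 1120.4 to 9184.8, and 16365.8 on chromosome 11 (3075910 to 3096357), against 780.6 to 5611.1.

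The remaining groups were both sorts at the region of chromosome 4 (145631969 to 145647074) with signal in the first Fed replicates: 227.9 in GFP-positive against 0 to 7.8 in the others, and 1309.3 in GFP-negative against 0 to 10.6.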

How the results depend on the processing

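With 2 libraries per group and no depth, precision rests on the spread between libraries. The 20 regions named for the sorts were chosen by small p and the same sign in all pairs of these libraries. That they kept their calls, as given next, was largely fixed by this choice and says little about the other regions. The 20 regions named for the sorts kept direction and call in all 280 combinations of region and alternative per direction, and of the other named values 2 passed the threshold, both with the other 10 libraries only. The main counts of 308 higher and 944 lower broad regions became 71 and 465 at an adjusted p of 0.01, 1787 and 2509 with the set of 6 as a term, and 2380 and 3082 with the other 10 only. Where touching pieces were joined, the unit was the stretch, and 934 (7.57%) of 12336 autosomal stretches of at least 10000 bp were higher and 1493 (12.1%) lower, against 6.64 and 9.56% of all 54666 stretches tested. The higher count became 481 with libraries centred on the median broad region and 483 with the 6 only. Leaving out 1 library gave 123 to 343 higher and 610 to 1246 lower.

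Same-numbered libraries of the 2 sorts deviated together with correlations of 0.45 for Fed, 0.50 for Lep2 and 0.37 for Lep24, the treatments with a library in the set of 6, and 0.01 for Fast. The numbers were not treated as pairing the samples, because that asked for a correlation above 0.1 in each pair. With the replicate block the counts were 1624 and 2375, and 953 ATAC regions in broad regions were lower. A crossed pairing of the Fast numbers in GFP-positive nuclei called 0.

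The treatment counts of 0 held under each alternative and each left-out library, except that the other 10 only gave 1 for fasting and 74 for repeated leptin in GFP-negative nuclei. ATAC counts in broad regions were 206 higher and 223 lower at an adjusted p of 0.01, and 436 to 996 and 347 to 810 with 1 library left out. A limit of 15000 bp left 4348 regions. The mean share of signal was 43.9% with the 6 only and 49.7, 35.5 and 29.1% at limits of 8000, 12000 and 15000 bp. The sort difference in that share, -0.19 points, was 1.86 with the 6 only, -1.42 with the other 10 only (exact permutation p = 0.0317) and 0.0933 at a limit of 8000 bp. With 1 library left out it ran from -0.726 to 0.204, and was 0.163 and 0.0544 without Fast GFP-positive 1 and 2, 0.0492 without Lep2 GFP-negative 1, 0.119 without Lep24 GFP-negative 1 and 0.00946 without Lep24 GFP-positive 2. The cause of these shifts was not tested. The alternatives with joined stretches, crossed numbers and the dense or single-pair regions left out were chosen after seeing the data.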
